A study of Mus musculus with 48 samples.

Results

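The libraries described here came from 4T1 cells, a mouse mammary tumor cell line, and compare the RNA recovered with a CNOT7 mutant that does not bind CNOT1 with the RNA recovered with wild-type CNOT7. The members were the 5 M141R RIP libraries and the 5 CNOT7 RIP libraries, 10 of the 48 libraries of the series, chosen by their labelled construct and paired by replicate number (6 to 10). Ribonucleoprotein immunoprecipitation sequencing (RIP-seq) was done with the M2 anti-FLAG antibody on native lysates. The CNOT7 cells carried FLAG-tagged human CNOT7, the M141R cells the same cDNA with the methionine that its name gives (M141R) changed to arginine, and the vector cells an empty lentiviral vector without a tagged protein. Both cDNAs were driven by the murine Pol2 promoter in blasticidin-selected cultures that also kept their own mouse Cnot7. Each RIP library had an input library of total lysate RNA, and the 5 vector RIP libraries measured what the antibody and beads recovered without a bait. The labels number the replicates but do not say that they are separate cultures, so every p-value below measures the spread between these libraries, which may be technical.

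CNOT7 is a deadenylase of the CCR4-NOT complex. It shortens the poly(A) tail of mRNAs, a step that leads to translational repression and decay. CNOT1 is the scaffold on which the other subunits assemble and to which many RNA-binding recruiters attach, among them Nanos proteins, TTP and the TNRC6 proteins of the microRNA pathway. TOB and BTG proteins bind CNOT7 itself and link it to another set of recruiters, including CPEB proteins. M141R separates these routes, because the mutant keeps TOB1 and loses CNOT1. The comparison therefore asks whether the RNA found with CNOT7 depends on its contact with CNOT1.

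The mutated residue is shown for orientation. In the coding sequence of mouse Cnot7 (transcript Cnot7-201 of GENCODE M21, 285 codons) the codon of this methionine is the ATG in capitals, read 5′ to 3′ on the coding strand with the codons on both sides in lower case. The construct itself carries human cDNA, which is not printed.

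Cnot7 codon changed in M141R: gcagaacttcttATGacttcaggagtg

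Few reads of the RIP libraries were assigned to the targeted gene. Those of mouse Cnot7 numbered 14, 6, 6, 0 and 2 in M141R RIP replicates 6 to 10, 10, 7, 5, 3 and 3 in CNOT7 RIP and 6, 9, 5, 5 and 2 in vector RIP. The 3 groups overlapped, and the vector cells, which have no FLAG-CNOT7, were in the same range. The mean level on the log2 CPM scale (log2 of the counts scaled to each library's total, with a prior count of 2) was 1.24 ± 1.01 (SD, n = 5) in M141R RIP and 1.49 ± 0.26 (SD, n = 5) in CNOT7 RIP. The difference of -0.24 was within the spread of the pairs (exact two-sided sign-flip permutation test, p = 0.688), and it turned to 0.16 without replicate 9. The smallest p that 5 pairs allow is 0.0625. The inputs held more, with 178, 85, 65, 62 and 101 reads for M141R and 142, 116, 86, 31 and 6 for CNOT7, the lowest again in CNOT7 input replicate 10. The count of mouse Cnot7 does not check the labels, since the expressed cDNA is human and the gene overlaps Vps37a and Zdhhc2 on the opposite strand. The 9 epithelial markers summed to 21 to 120 reads in each of the 10 inputs. Epcam, a cell adhesion protein, had 5 to 34 reads, Krt7, a simple-epithelium keratin, 8 to 33, Cdh1, E-cadherin, 1 to 30 and Cldn7 3 to 16, whereas Krt8, Krt18, Krt19, Cldn3 and Cldn4 were at 0 in some inputs and reached at most 12. The fibroblast markers (Col1a1, Col1a2, Col3a1, Pdgfra and Dcn) summed to 0 to 11 reads with Col3a1 at 0, and the endothelial markers (Pecam1, Cdh5, Kdr and Tek) to 0 to 17. The immune markers summed to 15 to 53 reads, of which Csf1r, a macrophage receptor, had 12 to 51, while Ptprc and Itgam had at most 3 and Cd3e had 0.

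The recovered RNA was nearly the same short list of features with both baits. The 13 most counted genes held 95.4% to 98.0% of all counts in M141R RIP and 96.6% to 98.0% in CNOT7 RIP. The same 13 held 97.2% to 98.2% in vector RIP, where no tagged bait was present. The mean share was 97.2% ± 1.04 (SD, n = 5) in M141R RIP and 97.5% ± 0.543 (SD, n = 5) in CNOT7 RIP. The difference of -0.322 percentage points was within the spread of the pairs (exact sign-flip test, two-sided, p = 0.25), and it shrank to -0.093 without replicate 9. In the inputs the 13 held 8.70% to 19.1% of counts, apart from CNOT7 input replicate 10 with 1.59%.

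A single feature, ENSMUSG00000045999, which has no symbol in the table and no entry in GENCODE M21, took 60.8%, 61.1%, 60.8%, 63.0% and 57.8% of the counts of M141R RIP replicates 6 to 10. In CNOT7 RIP it took 61.1%, 61.5%, 63.4%, 63.6% and 57.0%. Both series were lowest in replicate 10 and overlapped throughout, and the fold change was -0.02 ± 0.06 (log2, SE) with a 95% interval of -0.14 to 0.10. Filip1l came next with a mean of 10.7% ± 1.08 in M141R RIP and 10.3% ± 0.794 in CNOT7 RIP (SD, n = 5). Jarid2, a subunit of the Polycomb complex PRC2, followed with 6.70% ± 0.932 and 6.77% ± 0.926 (SD, n = 5). Neither of them differed by more than the spread between libraries.

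Several of the other features lie over small RNA genes, and reads over overlapping genes cannot be told apart with certainty because the strand setting of the counting was not given in the sources used here. The feature that the table calls Galnt2 is named Gm20388 in GENCODE M21, spans 4435 kb and overlaps 209 genes, 51 of them rRNA genes. It took 0.650% ± 0.16 of M141R RIP and 0.726% ± 0.196 of CNOT7 RIP (SD, n = 5), against 10.2% ± 2.33 and 10.1% ± 6.47 of the inputs. LOC102639045, an antisense transcript over Kpna1, Zc3h7a, a zinc finger protein, and Tmtc2 held 2.55% to 5.12% each in every one of the 10 libraries. ENSMUSG00000082697, which also has no symbol, took 5.41% ± 0.181 of M141R RIP and 5.58% ± 0.417 of CNOT7 RIP (SD, n = 5). Cntnap5b, Fgfr2, Il1rapl1, Kpna1 and Atf2 were each below 1% in all 10 libraries, with fitted changes of -0.04, -0.01, 0.06, -0.05 and -0.03 (log2). Over the 13 features the fitted changes ran from -0.16 to 0.09 (log2), with a median of -0.02, and 13 of 13 had a 95% interval inside a 2-fold change either way. The median half-width of these intervals was 0.17 (log2), beside 0.47 over all genes tested.

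**Figure D1:**
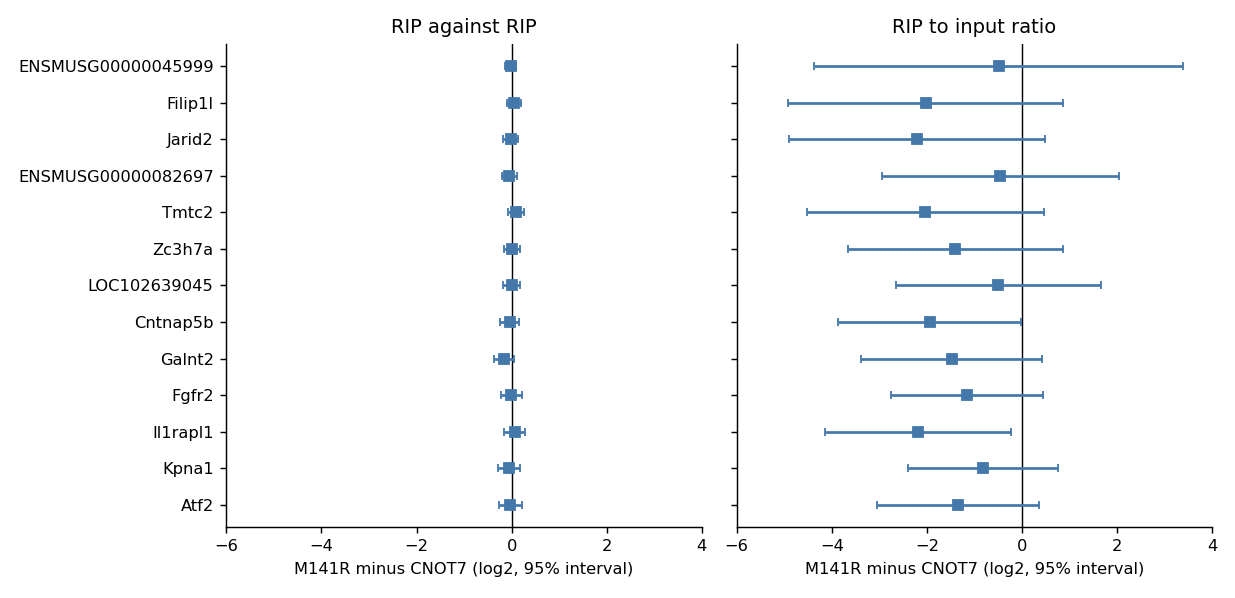
Fitted difference between M141R and CNOT7 (log2) for the 13 most counted features, with 95% intervals as bars, from the RIP libraries alone (left) and from RIP divided by input (right), both on 1 scale. The left intervals all lie between -0.38 and 0.29, whereas those on the right reach from -4.92 to 3.39.

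Sequencing depth overlapped between the baits. Total counts were 1755045 to 4185604 in M141R RIP and 1484364 to 3581483 in CNOT7 RIP. Outside the 13 features they held 41607 to 107582 and 50116 to 76969 counts. The least different replicate pair of the 4 groups, M141R RIP 7 and 8, still differed by a chi-square of 4.98 per degree of freedom, above sampling noise, so all libraries were counted separately.

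M141R RIP replicate 9 stood apart from the rest of its group. It had 14555 genes with a read, against 5140 to 7657 in the other M141R RIP libraries and 5104 to 9190 in CNOT7 RIP. After thinning every RIP library to 41607 counts outside the 13 features, it still held 9636 genes, against 3760 to 6793 in its group and 8313 in CNOT7 RIP replicate 9. Genes spanning 100 kb or more took 28.9% of its counts outside the 13 features. They took 15.3% to 17.5% in the other M141R RIP libraries, 23.1% in CNOT7 RIP replicate 9 and 15.1% to 18.9% in the other CNOT7 RIP libraries. Mitochondrially encoded genes took 5.09% there and 1.22% to 3.34% in the other M141R libraries. That share was not particular to this library, with 4.73% in CNOT7 RIP replicate 10 and 7.49% in vector RIP replicate 9.

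**Figure D2:**
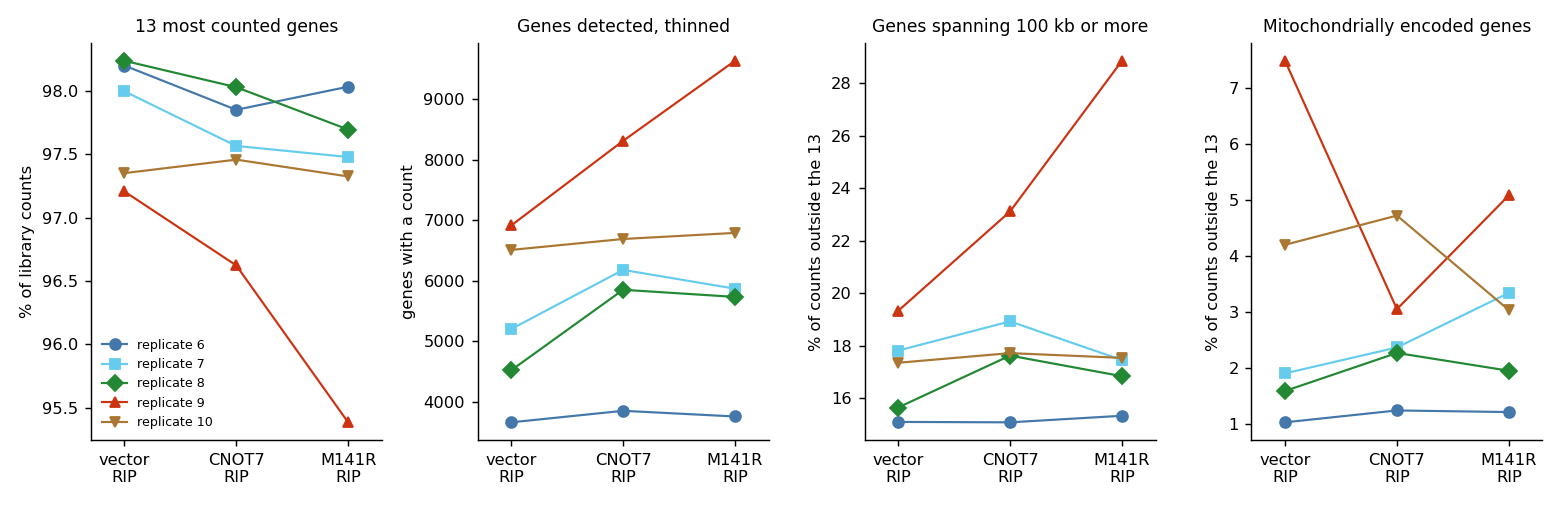
From left to right, the share of counts on the 13 most counted features, the genes detected after thinning to 41607 counts outside those features, and the shares of the remaining counts on genes spanning 100 kb or more and on mitochondrially encoded genes. Each line joins the vector, CNOT7 and M141R RIP libraries of 1 replicate number, and replicate 9 has the lowest share on the 13 features and the highest share of long-gene counts in all 3 groups.

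To ask which RNAs were recovered differently with M141R, RIP was compared with RIP in edgeR's quasi-likelihood test with the replicate number as a block. Of 790 genes that passed the count filter, 0 were higher (0%) and 0 lower (0%) in M141R RIP at a Benjamini-Hochberg adjusted p under 0.05. Before adjustment, 32 genes had a p under 0.05 with a higher level (4.05%) and 15 with a lower one (1.9%). DESeq2 gave 7 and 2 and also called 0 genes after adjustment. The CPM in M141R RIP exceeded that in CNOT7 RIP in 5 of 5 pairs for 19 genes (2.41%) and fell below it in 5 of 5 pairs for 11 (1.39%). Without replicate 9, edgeR called 0 of 852 genes higher and 1 lower, with 17 and 12 before adjustment, and the median change of all genes moved from 0.03 to 0.02 (log2). Measured precision was high for these genes, since 736 of 790 (93.2%) had a 95% interval inside a 2-fold change, with a median half-width of 0.47 (log2). Against vector RIP, however, 0 of 762 genes were higher with M141R and 0 of 852 with CNOT7 at the same adjusted p. The intervals therefore bound the precipitates as a whole, with what antibody and beads recover without a bait, and not RNA held by CNOT7. Most of the table could not be tested, since 21005 of its 26899 features had at most 3 counts in each of the 10 RIP libraries.

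**Figure D3:**
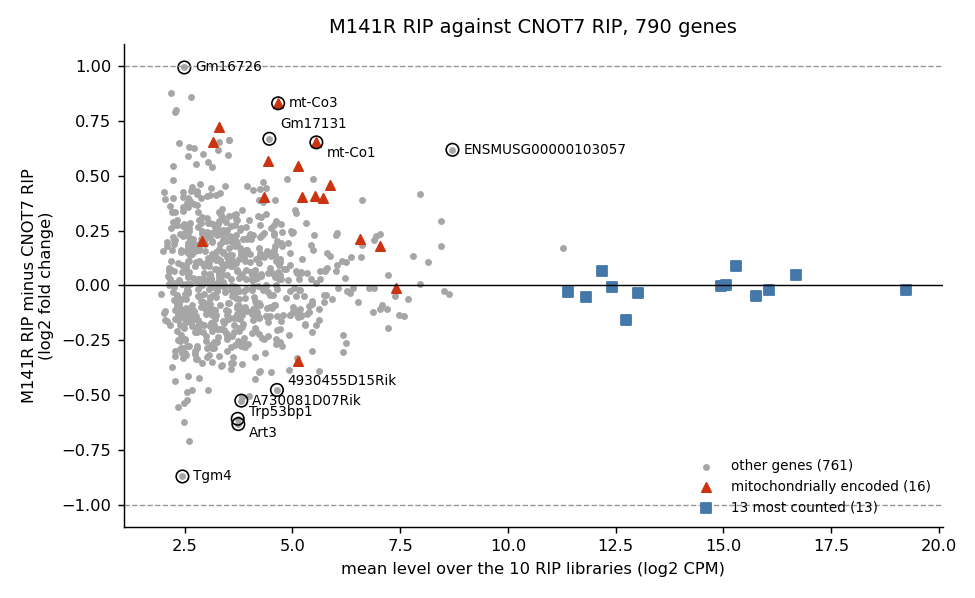
Fold change between M141R and CNOT7 RIP (log2) against mean level (log2 CPM) for the 790 genes tested, with the 13 most counted features as squares, mitochondrially encoded genes as triangles and the 10 genes of smallest p, 5 in each direction, circled. Dashed lines mark a 2-fold change, and no point lies beyond them.

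The gene nearest to the threshold was ENSMUSG00000103057, a feature without a symbol or an entry in GENCODE M21. Its level was 137, 168, 236, 1176 and 775 CPM in M141R RIP replicates 6 to 10 and 84.3, 137, 108, 781 and 576 CPM in CNOT7 RIP. It was higher with M141R in 5 of 5 pairs, by 0.29 to 1.12 on the log2 scale, although the groups overlapped because replicates 9 and 10 were high in both. The fitted change was 0.62 ± 0.15 (log2, SE), with an adjusted p of 0.0583 in edgeR's quasi-likelihood test. Without replicate 9 it was 0.60 with an adjusted p of 0.0988, and it passed the threshold without replicate 7 (0.67, adjusted p = 0.0164) and under 3 other settings given with the processing. In vector RIP it stood at 118, 129, 86.4, 264 and 333 CPM, and in the 10 inputs at 1053 to 15948 CPM. M141R RIP replicate 9 was the 1 RIP library inside that input range.

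The next genes in the upward direction were mitochondrial mRNAs. For mt-Co3, a cytochrome c oxidase subunit, M141R RIP held 9.32, 32.5, 7.75, 125 and 5.70 CPM and CNOT7 RIP 11.2, 14.8, 7.23, 29.6 and 7.57 CPM. It was higher in 3 of 5 pairs, with the largest gap in replicate 9, and the fitted 0.83 ± 0.23 (log2, SE, edgeR adjusted p = 0.194) fell to 0.31 without that replicate. mt-Co1, the catalytic subunit of the same enzyme, had 30.1, 61.6, 16.6, 187 and 16.5 CPM against 23.2, 34.2, 15.5, 63.3 and 19.2 CPM, and its fitted 0.65 became 0.36 without replicate 9. Gm17131, a pseudogene opposite Tmem132d, followed the same course, with 110 CPM in M141R replicate 9 and 0.478 to 16.0 CPM in the others. Gm16726, an antisense transcript of Gbf1, differed from these in being 1.15 without replicate 9 and 0.99 with it (log2, edgeR adjusted p = 0.544 with all pairs), on 8 to 30 reads a library in M141R RIP and 3 to 18 in CNOT7 RIP.

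In the downward direction Trp53bp1, a DNA double-strand break repair protein, had 8.60, 12.9, 6.09, 14.2 and 7.41 CPM in M141R RIP and 22.3, 12.8, 16.8, 15.5 and 6.56 CPM in CNOT7 RIP. Replicates 6 and 8 carried the difference of -0.61 ± 0.23 (log2, SE), and it was lower in 3 of 5 pairs, with -0.75 without replicate 9. Art3, an ADP-ribosyltransferase family member whose locus overlaps Cxcl10 and Cxcl11 on the opposite strand, had 56, 22, 14, 45 and 0 reads in M141R RIP and 105, 45, 44, 15 and 6 reads in CNOT7 RIP. It was lower in 4 of 5 pairs and higher in replicate 9. The fitted change was -0.63 ± 0.24 (log2, SE, edgeR adjusted p = 0.667) with 5 pairs and -1.06 ± 0.26 (edgeR adjusted p = 0.0374) without replicate 9, the only gene called in either direction there. Tgm4, a transglutaminase, 4930455D15Rik, a lincRNA opposite Wdr36 and Tslp, and A730081D07Rik, an antisense transcript of Gcnt2, were each lower in 4 of 5 pairs, with fitted changes of -0.87, -0.48 and -0.53 (log2, edgeR adjusted p of 0.667 for each). Without replicate 9 these 3 were at -1.18, -0.48 and -0.48.

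**Figure D4:**
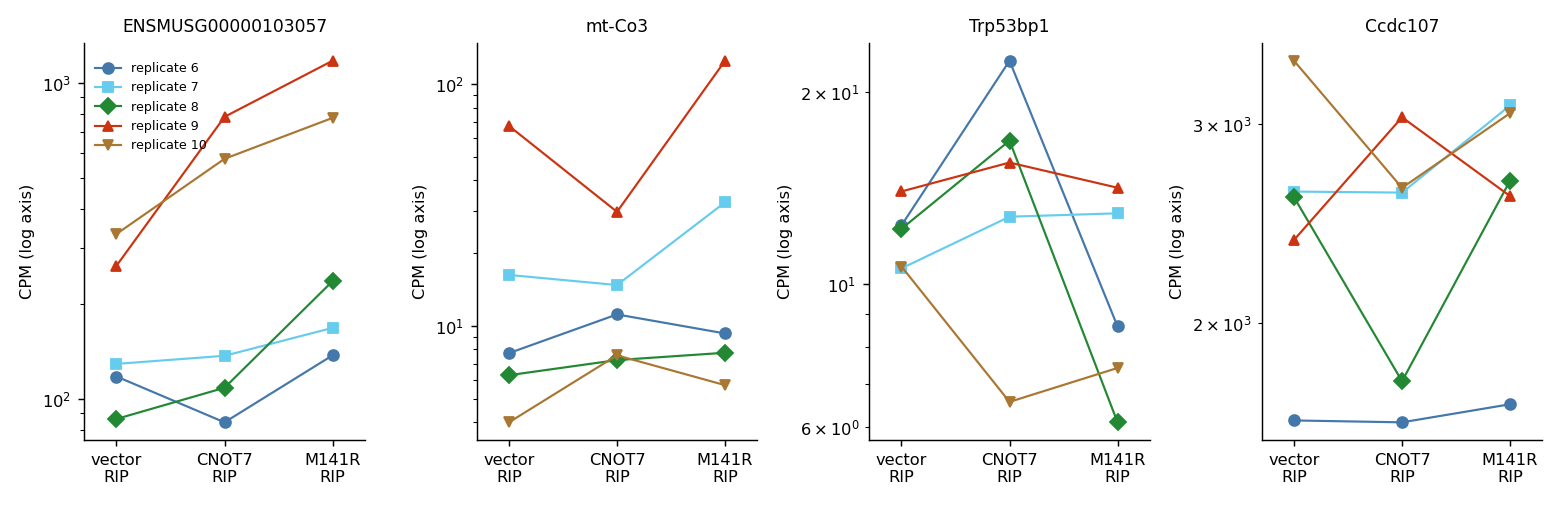
Level (CPM, log axis) of 4 genes in vector, CNOT7 and M141R RIP, with a line for each replicate number. ENSMUSG00000103057 is higher in M141R than in CNOT7 RIP in all 5 pairs, mt-Co3 mainly in replicates 7 and 9, Trp53bp1 is lower mainly in replicates 6 and 8, and Ccdc107 is higher in 4 of 5 pairs and lower in replicate 9.

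Highly counted genes outside the 13 features gave close bounds. Ccdc107, which lies opposite Rmrp, the RNA of a nuclear and mitochondrial endoribonuclease, had 2628 ± 571 CPM in M141R RIP and 2339 ± 606 CPM in CNOT7 RIP (SD, n = 5), a fitted change of 0.17 with a 95% interval of -0.07 to 0.41 (log2). Vwa3a stood at 357 ± 84.2 and 365 ± 104 CPM, with an interval of -0.32 to 0.27. Slc38a6, an amino acid transporter, ranged from 96.8 to 854 CPM in M141R RIP and from 180 to 759 CPM in CNOT7 RIP, and its interval was -0.34 to 0.26. Gm4876, an antisense transcript of Tes, was higher in 5 of 5 pairs by a fitted 0.29, with an interval of 0.00 to 0.59 (edgeR adjusted p = 0.79). Without replicate 9 the fitted changes of Ccdc107, Vwa3a, Slc38a6 and Gm4876 were 0.25, -0.07, -0.11 and 0.30. Vector RIP held as many reads of these genes, with sums of 37104, 4682, 4084 and 5082 in the same order. The sums were 31784, 4305, 4890 and 4574 in M141R RIP and 28758, 4689, 4431 and 3926 in CNOT7 RIP. Their bounds thus concern RNA that was also recovered without a bait.

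Division by input widened the error. The ratio of RIP to input was compared in 1 model with each lysate and the RIP effect of each replicate number as blocks, over 4799 genes. None of them passed an adjusted p of 0.05 in edgeR's test (0 higher, 0%, and 0 lower, 0%), and DESeq2 gave 0 as well. Before adjustment edgeR had 45 genes with a higher ratio (0.938%) and 128 with a lower one (2.67%), and DESeq2 had 38 and 17. The median half-width of the 95% interval was 2.03 (log2), and 137 of 4797 genes (2.86%) had an interval inside a 2-fold change. For the 13 most counted features the fitted differences were -2.21 to -0.46, all negative, and no interval lay inside a 2-fold change. Without replicate 9 their median moved from -1.40 to -0.79, and without replicates 9 and 10 to -0.14. Without replicate 10 alone it was -0.94 with 13 of 13 negative, and 3 of the 13 were lower before adjustment, as were 58 of 4734 genes in all. With all pairs 2 of the 13 were lower before adjustment, and 0 without replicate 9 or without replicates 9 and 10. Without replicate 9 alone 0 of 5408 genes passed, with 21 higher and 136 lower before adjustment.

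The 10 inputs were uneven. In M141R input replicate 9, Jarid2 and Tmtc2 took 0.962% and 0.610% of counts, against at most 0.0504% and 0.0112% in the other 9 inputs. In CNOT7 input replicate 10, the feature called Galnt2 had 0% of counts, against 6.28% to 16.8% in the others, and genes spanning 100 kb or more took 3.44% of counts outside the 13 features, against 10.9% to 16.5%. Among genes of smallest p in the ratio, Golga2, a Golgi matrix protein, had 15, 15, 11, 5 and 11 reads in CNOT7 RIP and 12, 7, 4, 10 and 5 in M141R RIP. Its CNOT7 inputs held 46, 179, 47, 71 and 2 reads, the last from replicate 10, and its ratio differed by -1.70 ± 0.49 (log2, SE, edgeR adjusted p = 0.833). Il11ra1, an interleukin-11 receptor chain, Pcx, pyruvate carboxylase, Gm20532 and 4930595D18Rik were lower in the ratio in 5 of 5 pairs, by 1.40 to 2.81 on the log2 scale, and had no adjusted p below 0.833. In CNOT7 input replicate 10 these 4 genes held 0, 2, 0 and 3 reads, against 383 to 1054, 203 to 772, 208 to 449 and 11 to 43 in the other CNOT7 inputs. Without replicate 10 the differences of Il11ra1, Pcx, Gm20532 and 4930595D18Rik were -0.52, -0.43, -0.46 and -2.25, and that of Golga2 was -1.04.

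Upward in the ratio, Tex2, an endoplasmic reticulum lipid transfer protein, had 3, 5, 2, 10 and 2 reads in M141R RIP and 0, 2, 0, 0 and 0 in CNOT7 RIP, so that in CPM the groups did not overlap. Their inputs held 11 to 45 and 11 to 36 reads. The ratio differed by 3.65 ± 1.05 (log2, SE, edgeR adjusted p = 0.833), but a fitted value against libraries at 0 depends on the prior count. In vector RIP Tex2 had 0, 1, 0, 2 and 4 reads, which overlapped both baits. Gbe1, the glycogen branching enzyme, mt-Ta, a mitochondrial tRNA, A330044P14Rik and Gm26869 had 16, 24, 48 and 23 reads over the 5 M141R RIP libraries, of which replicate 9 held 9, 12, 28 and 5, and 4, 6, 16 and 12 reads over the 5 CNOT7 RIP libraries.

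Leaving out replicates 9 and 10 together, an alternative chosen after the data were seen, gave 4 genes with a lower ratio in M141R on 3 pairs. Their names are given because they are so few. They were Lars2 (-1.64, log2), Rmrp (-1.58), ENSMUSG00000089855 (-1.58) and Gm42418 (-0.96), with adjusted p of 8.9e-08, 0.00933, 0.0322 and 0.0322 in edgeR's test. With all 5 pairs the same 4 differed by 0.10, -0.25, 0.25 and 0.47, and none had an adjusted p below 1. Lars2, mitochondrial leucyl-tRNA synthetase, ranged from 35 to 3180 reads in the CNOT7 inputs and from 49 to 1329 in the M141R inputs.

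The inputs compared with each other gave 0 genes in either direction among 2671 tested (edgeR, 24 and 35 before adjustment, and 60 and 68 without replicate 10). Against the empty vector, M141R RIP had 0 higher (0%) and 0 lower (0%) of 762 genes, with 23 (3.02%) and 16 (2.1%) before adjustment. CNOT7 RIP had 0 (0%) and 0 (0%) of 852 genes against the vector, with 21 higher (2.46%) and 21 lower (2.46%) before adjustment. Both of these comparisons share the vector libraries. The most counted feature, ENSMUSG00000045999, stood at -0.22 (log2, edgeR adjusted p = 0.139) with M141R and at -0.16 (edgeR adjusted p = 0.913) with CNOT7. Atf2, a stress-responsive transcription factor, stood at 0.03 and 0.09. Some calls appeared when a replicate was left out. For M141R against vector without replicate 10, 3 genes passed upward and 1 downward, namely Gm10717 (1.69, log2), Gm10719 (1.82), Gm17132 (1.14) and ENSMUSG00000045999 (-0.24). In the same comparison without replicate 7, Gm10717 passed alone (1.83). For CNOT7 against vector, ENSMUSG00000089855 passed without replicate 9 (0.75). These few genes are named because their number is small, after their values were seen.

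The study's own list of CNOT7-bound transcripts was read next. The list was selected as enriched in the CNOT7 RIP over input and vector RIP, and as inversely related to Cnot7 on arrays. All of its 149 genes were present in the table. Its level in CNOT7 and vector RIP is therefore not independent evidence, and a lower level in another group is partly fixed by the choice. Of the 149 genes, 1 passed the count filter and 72 had at most 3 counts in each of the 10 RIP libraries. Summed over the list, M141R RIP replicates 6 to 10 held 99, 191, 100, 812 and 158 reads and CNOT7 RIP 105, 293, 215, 336 and 242.

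In CPM the list stood at 23.7, 70.5, 55.4, 348 and 90.0 in M141R RIP, at 29.3, 98.3, 70.7, 226 and 122 in CNOT7 RIP and at 13.9, 41.9, 17.5, 85.2 and 52.0 in vector RIP. M141R was below CNOT7 in replicates 6, 7, 8 and 10 and above it in replicate 9. The ratios within pairs were 0.807, 0.716, 0.784, 1.54 and 0.737, with a geometric mean of 0.875 over 5 pairs and 0.760 without replicate 9. The same ratios over all genes outside the 13 features were 0.915, 1.04, 1.17, 1.37 and 1.05, with geometric means of 1.10 and 1.04. Gene by gene, the mean level over replicates 6, 7, 8 and 10 was lower in M141R for 105 of 149 genes and higher for 43, whereas of the 19714 genes with a read outside the 13 features 41.1% were lower and 41.8% higher. With replicate 9, 85 of the 149 were lower and 64 higher, and 64.1% of the 19714 were higher.

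**Figure D5:**
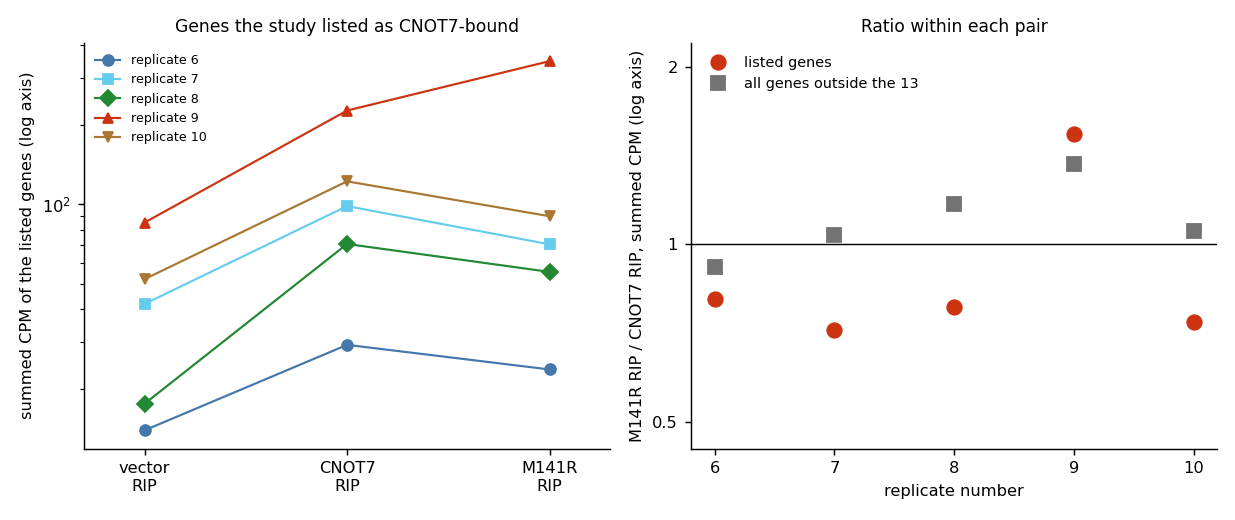
Left, summed level (CPM, log axis) of the 149 genes that the study listed as CNOT7-bound, with a line for each replicate number. Right, the ratio of M141R to CNOT7 RIP within each pair for these genes (circles) and for all genes outside the 13 most counted features (squares). The listed genes are at 0.716 to 0.807 in 4 pairs and at 1.54 in replicate 9.

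Against the vector libraries, which both ratios share, the listed genes were higher in 5 of 5 pairs with both baits. The list was chosen partly for a low level in these vector libraries. A ratio above 1 to them is thus partly fixed by the choice, also for M141R. The ratio of M141R to vector was 1.70, 1.68, 3.16, 4.09 and 1.73, and that of CNOT7 to vector 2.11, 2.35, 4.03, 2.66 and 2.35. All genes outside the 13 features gave 1.01 to 1.65 and 0.960 to 1.22. The most counted of the listed genes, Brinp3, had 13, 13, 3, 27 and 5 reads in M141R RIP and 14, 14, 20, 12 and 9 reads in CNOT7 RIP, with a fitted -0.28 ± 0.32 (log2, SE, edgeR adjusted p = 0.973) and -0.60 without replicate 9. Tenm2, a teneurin, had 47 of its 58 M141R RIP reads in replicate 9, and Magi1, a scaffold of cell junctions, 32 of 43. Synj1, a phosphoinositide phosphatase of synaptic vesicles, had 3, 4, 4, 13 and 6 reads in M141R RIP against 2, 2, 6, 3 and 4 and was higher in CPM in 5 of 5 pairs, with a ratio to input of -0.30 (log2, edgeR adjusted p = 1) that turned to 0.43 without replicate 10. Sorbs2, an adaptor protein of the actin cytoskeleton, had 0, 4, 0, 16 and 4 reads against 3, 6, 5, 7 and 8 and was lower in CPM in 4 of 5 pairs and higher in replicate 9. Its ratio to input was -1.66 ± 0.66 (log2, SE, edgeR adjusted p = 1), -2.70 without replicate 9 and -0.78 without replicate 10. Of the other most counted listed genes, Polr1e and Qtrtd1 were lower in 3 of 5 pairs, and Gm16596, Dgki and Tnr were higher in 4 of 5. Highest levels fell in replicate 9 for 112 of the 149 genes in M141R RIP and for 104 in CNOT7 RIP. The share over all genes was not computed. M141R RIP replicate 9 had reads of 14555 genes against 5140 to 7657 in its group, so these counts are not read as a trait of the list.

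The list was chosen as enriched in CNOT7 RIP over input, so a lower ratio with M141R is partly fixed by the choice. The genes tested in all were not chosen in this way. In the ratio to input, 26 of the listed genes could be tested. The median difference was -0.99 (log2) and 25 of 26 were negative, beside a median of -0.10 and 2670 of 4799 over all genes tested, and 2 of the 26 were lower before adjustment, where 2.67% of all genes were. Without replicate 10 the median was -0.45, 20 of 27 were negative and 0 were lower before adjustment, beside a median of 0.03, 2297 negative and 58 lower among all 4734 genes. Without replicate 9 the median was -1.33 and 30 of 31 were negative, beside -0.19 and 3169 of 5408. Without both replicates it was -0.90 with 28 of 36 negative, beside -0.08 and 2943 of 5415. CNOT7 input replicate 10 held 44 reads on the list, against 269 to 1197 in the other CNOT7 inputs and 590 to 1060 in the M141R inputs. A subset of 71 of these genes has 3′ ends with the motifs CPE, CPSF and NRE, named for binding by CPEB, CPSF and Nanos proteins. In the ratio to input 17 of the 71 were tested, with a median of -1.07 and 16 negative. The median was -1.23 without replicate 9 and -0.63 without replicate 10. Between the RIP libraries, not divided by input, the geometric mean ratio of M141R to CNOT7 for the 71 was 0.744 without replicate 9 and 0.841 with it.

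Few genes of the wider array lists and of the decay machinery could be tested between the RIP libraries. Transcripts inversely related to Cnot7 on arrays matched 433 genes of the table, of which 10 were tested between M141R and CNOT7 RIP, with a median of -0.03. Before adjustment 1 of the 10 was lower, where 1.9% of all genes were, and 0 were higher. Without replicate 9 the median was -0.08 over 12 genes, and 0 of them were lower before adjustment. The 293 inversely related transcripts that carry the CPE, CPSF and NRE motifs gave 9 tested genes, with a median of 0.09 and 0 in either direction, and 11 genes with a median of -0.04 without replicate 9. All genes tested had a median of 0.03. In the ratio to input 106 genes of the first list were tested, with a median of -0.22 (log2), 62 negative, 1 higher and 4 lower before adjustment, and the median was -0.36 without replicate 9 and 0.01 without replicate 10. The 130 tested genes of the second had a median of -0.12, 71 negative, 2 higher and 1 lower, with -0.28 and 0.05 in the same settings. The medians over all genes were -0.10 with all pairs, -0.19 without replicate 9 and 0.03 without replicate 10. Of all 4799 genes tested with all pairs, 2670 were negative, and before adjustment 0.938% were higher and 2.67% lower. The shares of both lists were near these.

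CCR4-NOT subunits summed to 19, 13, 16, 35 and 12 reads in M141R RIP, the 35 being replicate 9, and to 12 to 19 in CNOT7 RIP, and 0 of 12 could be tested between the RIP libraries. In the ratio to input 6 could, with a median of 0.01 (log2), 3 positive and 0 past the threshold before adjustment. Cnot1, the scaffold that M141R does not bind, had 2, 4, 1, 9 and 1 reads in M141R RIP and 1, 6, 2, 4 and 2 in CNOT7 RIP, and its ratio differed by 0.13 ± 0.82 (log2, SE, edgeR adjusted p = 1). Of the recruiters that bind CNOT1 (Nanos and TTP families and others), 11 of 12 had at most 3 counts in each of the 10 libraries, and 4 tested in the ratio to input had a median of 0.03, or -0.32 over 5 without replicate 10. Of the 10 recruiters and adaptors on the TOB side, Cpeb3, which binds the cytoplasmic polyadenylation element, could be tested between the RIP libraries. It held 9.80, 9.22, 8.31, 11.2 and 6.27 CPM in M141R RIP, 6.14, 5.03, 8.55, 8.76 and 5.55 CPM in CNOT7 RIP and 5.87, 6.90, 6.26, 5.86 and 8.00 CPM in vector RIP. Cpeb3 was higher with M141R in 4 of 5 pairs, but the groups overlapped and the change of 0.44 ± 0.26 (log2, SE) had an edgeR adjusted p of 0.973, with 0.45 without replicate 9. Its ratio to input turned to -0.48 (log2, edgeR adjusted p = 1) and was higher with M141R in 2 of 5 pairs, with -0.05 without replicate 10. The CNOT7 inputs held 161, 140, 144, 57 and 8 reads of Cpeb3, and the M141R inputs were above them by 0.75 ± 0.36 (log2, SE, edgeR adjusted p = 0.975). The microRNA effector Ago2 had 2, 1, 0, 5 and 1 reads in M141R RIP and 0, 1, 3, 6 and 5 in CNOT7 RIP. Tnrc6b had 0, 1, 0, 10 and 1 against 0, 1, 0, 3 and 2, and Tnrc6c 0, 0, 1, 7 and 0 against 1, 2, 1, 3 and 2, so most M141R reads of these genes came from replicate 9. Edc3, an enhancer of decapping, was the 1 tested gene of the decapping list, at 5.43 ± 2.53 CPM and 6.42 ± 2.39 CPM (SD, n = 5, edgeR adjusted p = 0.973), and its fitted -0.14 was 0.03 without replicate 9. Of 17 immediate early genes with AU-rich elements in the table, 0 could be tested between the RIP libraries. They summed to 6, 10, 5, 16 and 5 reads in M141R RIP and to 14, 13, 11, 11 and 10 in CNOT7 RIP. In CPM the ratio of M141R to CNOT7 was 0.367, 0.845, 0.766, 0.926 and 0.565, below 1 in 5 of 5 pairs on these few reads, with a geometric mean of 0.659, or 0.605 without replicate 9, beside 1.10 for all genes outside the 13 features. In the ratio to input 6 of these genes were tested, 2 with a positive sign and 0 past the threshold before adjustment, and their median of -0.48 (log2) was -1.02 without replicate 9 and -0.22 without replicate 10, each over 7 genes. The 6 genes of PAN2-PAN3 and poly(A) binding summed to 4, 8, 2, 25 and 7 reads in M141R RIP, with the 25 again in replicate 9, and to 10, 5, 12, 6 and 12 in CNOT7 RIP. Of 49 replication-dependent histone genes, whose mRNAs lack a poly(A) tail, 34 had no read in the 10 RIP libraries.

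In the RIP libraries mitochondrially encoded genes were high in replicate 9. Among 36 such genes, 16 were tested, 14 with a positive sign, at a median of 0.41 (log2) beside 0.03 for all genes, and 9 of 16 had a higher level before adjustment (p under 0.05) and 0 a lower one, where 4.05% of all genes were higher. None passed after adjustment. Without replicate 9 the median was 0.07 and 0 of 15 were past an unadjusted p of 0.05. Summed, they stood at 239, 843, 450, 2348 and 813 CPM in M141R RIP and at 267, 577, 448, 1031 and 1202 CPM in CNOT7 RIP, and vector RIP replicate 9 held 2092 CPM. Replicate 9 was the highest library of the M141R and vector groups, and replicate 10 that of the CNOT7 group. How far this library difference enters the counts was not tested. In the ratio to input 30 such genes were tested, 25 with a positive sign, at a median of 0.54 (log2) beside -0.10 for all genes. Without replicate 9 it was 0.35 with 22 of 31 positive, beside -0.19, and without replicate 10 it was 0.62 with 26 of 31 positive, beside 0.03. Before adjustment 2 of 30 had a higher ratio with all pairs, 1 of 31 without replicate 9 and 14 of 31 without replicate 10. Among all genes 45 of 4799, 21 of 5408 and 79 of 4734 did in the same settings. Without both replicates the median was 0.19 with 21 of 33 positive, beside -0.08 and 2472 of 5415 over all genes. Before adjustment 4 of the 33 were then higher and 2 lower, beside 37 and 44 of the 5415. Ribosomal protein mRNAs, 81 in the table, summed to 24.6 to 59.8 CPM in M141R RIP and 24.7 to 62.5 CPM in CNOT7 RIP, against 794 to 2050 CPM in the inputs, and the 1 tested gene had a fold change of 0.04, and 2 tested without replicate 9 a median of 0.30. In the ratio to input 36 of them had a median of 0.07, which turned to -0.38 over 45 genes without replicate 9.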

How the data were processed

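RNA from anti-FLAG precipitates and from lysates of 4T1 cells was sequenced by the authors on a HiSeq instrument from NEBNext Ultra Directional libraries. The deposited values are raw gene counts in 1 table of 26899 features. The submitters' processing notes name BWA, HTSeq and mm9, with versions and strand setting not given in the sources used here. The table gives no symbol for 8719 features, and GENCODE M21 supplied names where it could. Of its columns with per-sample values, 0 were left unassigned. Groups were the labelled constructs. M141R and CNOT7 RIP were compared with edgeR 4.0.16 (quasi-likelihood test, filterByExpr, TMM, limma 3.58.1, R 4.3.3), two-sided, with the replicate number as a block and Benjamini-Hochberg adjustment at 0.05. The ratio to input used a lysate block and the RIP effect of each number. DESeq2 1.42.0, other scalings, filters, blocks and omitted libraries were alternatives. Exact permutation tests used scipy 1.17.1 in Python 3.11.15. The code was tested on simulated data.

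Same-numbered M141R and CNOT7 RIP libraries deviated together from their group means (r = 0.826, 0.178, 0.231, 0.684 and 0.658 for replicates 6 to 10, across genes, which are not independent replicates), so the numbers were taken to pair them. For replicate 7 the highest r with another number was 0.188, above that with its own, and in the inputs it was 0.239 against 0.125. Named genes were the 5 of smallest p in each direction of both comparisons, the 13 most counted, measurable members of the decay-machinery lists, the 10 most counted listed transcripts and the most precisely or most highly counted others. Members and lists were chosen with earlier results of these data known. Total counts were 1484364 to 4185604 per RIP library and 337861 to 826768 per input, and these depths limit only counting error. Coordinates are not given, since the annotation used here is of another build than the counts. Not every gene that this rule names is printed with its own values, and those of few reads are summarised. Gm17057 is left out because its fitted change was too near 0 to give a usable error. A few further genes are not reported here.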

Additional observations from a re-analysis of the deposited data

Results flagged for a closer look

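In each group of 5 libraries the highest and the lowest value were compared with the gap to their neighbour, and 8 of 74 such groups held a value that stood apart from the other 4 at the 95% level of Dixon's test, which chance alone gives in about 1 in 20 groups. Most of the values come from replicate 9, and their causes were not tested. M141R RIP replicate 9 had 95.3855% of its counts on the 13 most counted features, the lowest of its group, and 28.8636% of the remaining counts on genes spanning 100 kb or more, the highest. The 149 transcripts of the study's list summed to 348.293 CPM there. mt-Co3 stood at 124.819 CPM, mt-Co1 at 187.015 CPM and Gm17131 at 109.807 CPM in the same library. Gm17131 also stood apart in CNOT7 RIP replicate 9, at 46.4846 CPM. Among the inputs, CNOT7 input replicate 7 held 737629 counts outside the 13 features, against 401745 in the next.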

How the results depend on the processing

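Between M141R and CNOT7 RIP, 1 gene (ENSMUSG00000103057) passed upward with library size alone as scaling, without the 13 most counted features, or with at least 10 counts in every sample. The other settings gave 0 and 0. Leaving out 1 replicate gave 0 to 1 genes higher (1 without replicate 7) and 0 to 1 lower (Art3, without replicate 9). Without the replicate block the pairing was ignored and 0 genes passed, with 5 higher and 1 lower before adjustment, against 32 and 15 with it. Without the block and without M141R RIP replicate 9, ENSMUSG00000103057 turned to -0.045 and Gm17131 to -0.64 (log2), and the cause was not tested. That fit kept CNOT7 RIP replicate 9, the highest library of its group in CPM for both genes. Before adjustment, 112 and 44 genes were higher and lower with no filter, 16 and 9 with at least 10 counts, and 224 and 77 with all 10 groups in 1 fit. For the ratio to input, the alternatives gave 0 calls, except 4 lower without lysates 9 and 10, a choice made after the data were seen that leaves 3 pairs. Before adjustment, 45 were higher and 128 lower, against 51 and 29 without the replicate block, 38 and 17 with DESeq2, 62 and 80 without the 13 features, 21 and 136 without replicate 9 and 79 and 58 without replicate 10, so the excess of lower genes turned without the block, with DESeq2, without replicate 10 and with at least 10 counts in every sample (5 and 3). Against vector RIP, leaving out 1 replicate gave 0 to 3 genes higher and 0 to 1 lower for M141R, and 0 to 1 higher for CNOT7. The Cnot7 difference ranged from -0.49 to 0.16 (without replicate 9, where it reversed). The result covers 790 of 26899 features, since the RIP libraries held only 41607 to 107582 counts outside the 13 most counted.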
